A study of Arabidopsis thaliana with 8 samples.

Results

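The genes described here take iron into the Arabidopsis root, move it through the plant and store it, together with the transcription factors that control these steps. They were chosen by name from what they are known to do, as a list of 31 loci, and by their total count: genes with under 10 counts summed over the 8 libraries were left out. No difference between groups entered the rule, but the list was chosen with earlier results of these data known. Its counts beside those of all genes are therefore a description. It kept 29 of the 31, out of 36799 genes in the count tables. MYB72 (1 count in all) and S8H (3 counts) were dropped, and bHLH100, with 53 counts, was the nearest above the limit. Of the exonic bases of MYB72, 73.98% lie under the gene AT1G56165, where the authors' counting left reads out. The edgeR filter on low counts left 28 of the 29 for testing, since bHLH100 did not pass it.

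Poly(A) RNA came from whole seedlings of Arabidopsis thaliana, germinated on MS plates with 1% sucrose and kept for 3 days in the dark. There were 4 groups of 2 libraries: the double mutant e2-2 e3-2-2 (line #67, called e2e3 here) in 10 ppm ethylene, e2e3 in hydrocarbon-free air, the double mutant e1-2-2 e2-2 (line #17, called e1e2 here) in 10 ppm ethylene, and e1e2 in air. Both lines thus carry e2-2, each is represented by 1 line, and no wild-type libraries were analysed here. By its title the series concerns the nuclear pyruvate dehydrogenase complex and the response to ethylene that EIN2 directs. The labels do not give the hours of ethylene, name no change of iron supply and leave unsaid whether the 2 replicates were grown apart, so the p-values measure only the spread between these libraries.

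Arabidopsis acidifies the soil with a proton pump, reduces ferric iron at the root surface with FRO2 and imports the ferrous ion through IRT1. Under iron shortage the bHLH factor FIT pairs with bHLH38, bHLH39, bHLH100 or bHLH101 to switch on these genes, and coumarins secreted by the root help to mobilise iron. Inside the plant, nicotianamine and citrate carry iron, vacuolar transporters put it away or release it, and plastid ferritins hold it in a safe form.

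Ethylene raised a group of uptake and transport genes in both lines. NAS2, CYP82C4, IRT1, FRO2, IRT2, FRD3, OPT3, NRAMP1 and MYB10 were called higher in ethylene than in air in e2e3 and in e1e2, and VIT1, AHA2 and BTS were called lower in both. The calls of BTS in both lines, and of FRO2 and MYB10 in e1e2, were lost in DESeq2, an alternative test. In the authors' deposited DESeq2 results, CYP82C4 and FRD3 in e2e3 and OPT3 in e1e2 did not pass an adjusted p of 0.05. The lines also differed: IRT1, FRO2, CYP82C4, NAS2, FRD3, bHLH39, NAS1 and NRAMP1 were called lower in e2e3 than in e1e2 in air and in ethylene, although the calls of bHLH39 in ethylene and of NAS1 and NRAMP1 in both treatments were lost under several alternatives. The 3 plastid ferritin genes moved little. A gene is called here at an adjusted p under 0.05 in the quasi-likelihood test of edgeR, adjusted by the Benjamini-Hochberg method over all 20193 genes tested, and levels are CPM, which are counts divided by TMM-scaled library sizes and brought to 1 common total.

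In e2e3, ethylene raised 12 and lowered 5 of the 28 iron genes tested, where 44% of all genes tested were called (20.3% higher and 23.6% lower). In e1e2 it raised 10 and lowered 3, where 39.2% of all genes were called (18.3% higher and 20.9% lower). Called higher in both lines were 9 of 28 iron genes, against 12.8% of all genes, and called lower in both were 3 of 28, against 17.3%. The median log2 change of the iron genes was 0.14 in e2e3 and 0.21 in e1e2, and that of all genes tested was 0.01 in each. Scaled by library size alone, the split was 14 higher and 3 lower in e2e3, among 5874 higher and 3773 lower genes in all, against 4109 and 4767 with TMM. In e1e2 that scaling gave 13 higher and 2 lower iron genes, among 5220 higher and 3492 lower genes in all, against 3694 and 4217 with TMM. The e2e3 count of 17 dropped to 11 without replicate 2 of e2e3 in ethylene.

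**Figure D1:**
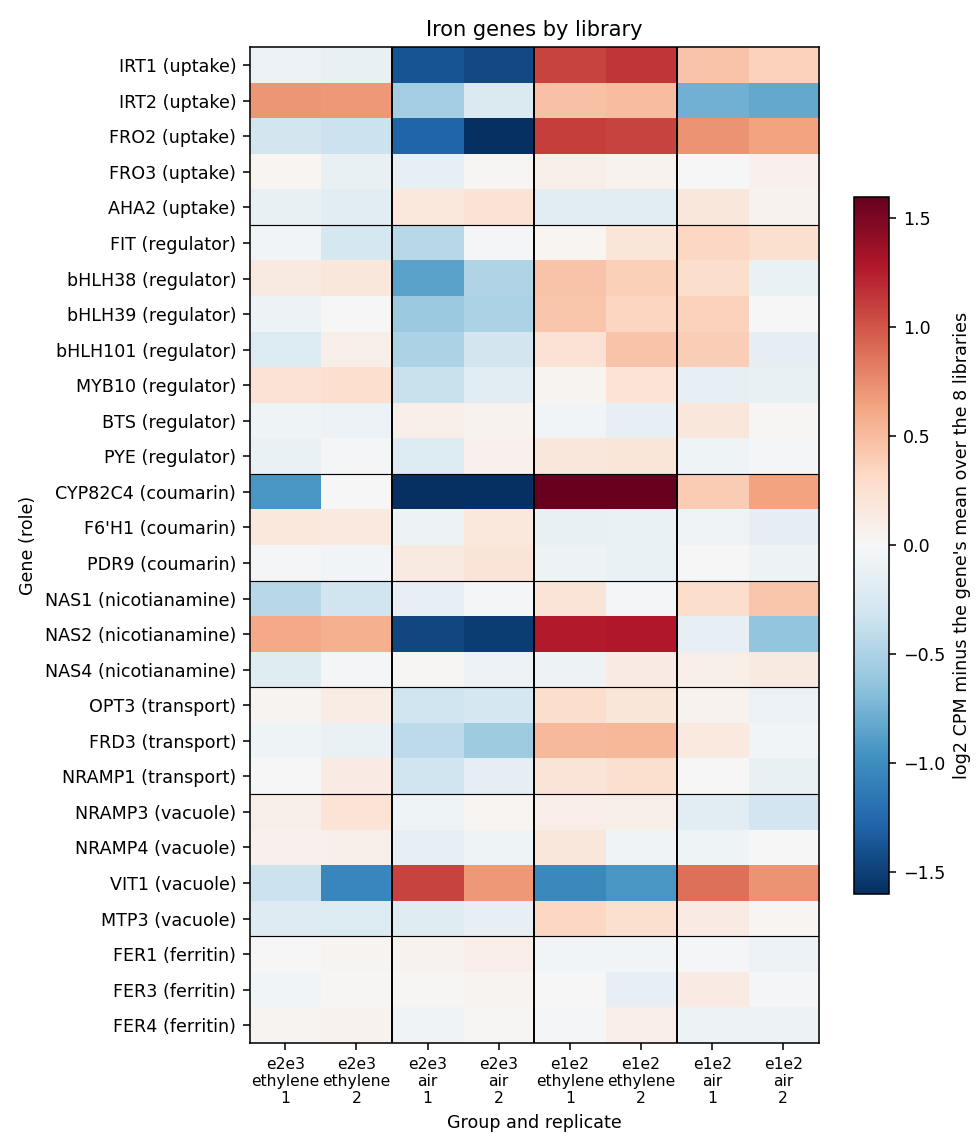
Heat map of the 28 tested iron genes (rows, grouped by role) in the 8 libraries (columns, by group and replicate). Colour is the log2 CPM of a library minus the gene's mean over the 8 libraries, on a scale that ends at the darkest red and blue. IRT1, FRO2, CYP82C4 and NAS2 are lowest in e2e3 in air and highest in e1e2 in ethylene, VIT1 is low in ethylene in both lines, and the ferritin rows are nearly white.

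Between the lines the iron genes leaned one way. In air, 2 were higher and 10 lower in e2e3 than in e1e2, where 14.8% of all genes tested were called (9% higher and 5.83% lower). In ethylene, 0 were higher and 9 lower, where 6.56% of all genes were called (4.24% higher and 2.32% lower). At an unadjusted p under 0.05, edgeR gave 2 higher and 12 lower iron genes in ethylene, and DESeq2 called 0 higher. Library size alone left the direction of these iron genes as it was, with 2 higher and 10 lower in air and 0 higher and 10 lower in ethylene, while the split over all genes turned to 1185 higher and 1756 lower in air, against 1818 and 1177 with TMM, and to 606 and 798 in ethylene, against 857 and 468. The median log2 difference, e2e3 over e1e2, was −0.15 in air and −0.14 in ethylene, against 0.01 and −0.00 over all genes. The count of 9 in ethylene rests on several calls near the threshold: it was 5 without replicate 1 of e2e3 in ethylene, 5 without replicate 1 of e1e2 in ethylene and 6 without replicate 2 of e1e2 in ethylene. DESeq2 gave an adjusted p to only 11 of the iron genes in this comparison and called 1, and without its independent filtering it called 5.

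The libraries held 11522823 to 18601837 counts. Which locus each allele hits is not in the labels, but 2 genes of pyruvate dehydrogenase subunits told the lines apart. In ethylene, E1 ALPHA had 215 ± 1.83 CPM in e2e3 and 19.7 ± 0.732 CPM in e1e2, and mtLPD2 had 38.4 ± 2.86 CPM in e2e3 and 150 ± 0.768 CPM in e1e2 (SD, n = 2 each). EFE, an ethylene-induced gene, rose with ethylene in both lines. The seedlings were sampled whole, and fewer cells of a type cannot be told apart from less RNA per cell. Of 7 root hair and epidermis markers, 4 were called higher and 0 lower in e2e3 than in e1e2 in air, and 2 higher and 0 lower in ethylene, and at an unadjusted p under 0.05 again 0 were lower in either treatment. Their summed level was 240.6 to 240.8 CPM in e2e3 in ethylene, 232.8 to 252 CPM in e2e3 in air, 183.4 to 193.9 CPM in e1e2 in ethylene and 167.3 to 172.8 CPM in e1e2 in air, and none was at 0. The largest part of that sum was PRP3, with means of 133.7, 133.7, 97.6 and 84.5 CPM in the same order of groups. Of 9 tested markers of inner root tissues, 5 were higher and 1 lower in e2e3 in air, and 4 higher and 1 lower in ethylene. With ethylene, 2 epidermis markers were called higher and 2 lower in e2e3 and 4 higher and 2 lower in e1e2, and of the inner root markers 6 were lower in e2e3 and 3 in e1e2. Of 4 shoot markers, 0 were higher and 3 lower in e2e3 than in e1e2 in air and none was called in ethylene. With ethylene 2 were higher and 1 lower in e2e3, and 0 higher and 2 lower in e1e2. Their summed level was 4779 to 4983 CPM in e2e3 in ethylene, 3990 to 4187 CPM in e2e3 in air, 4855 to 4896 CPM in e1e2 in ethylene and 4863 to 4908 CPM in e1e2 in air. Most of that sum was RBCS1A, with means of 4231, 3474, 4220 and 4088 CPM in the same order of groups. The part of tissue make-up in the results below was not tested.

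The 250 bases before the annotated start of 6 genes are shown because these genes carry the results that follow. IRT1, FRO2 and NAS2 are 3 of the genes called in both ethylene comparisons and both line comparisons, and bHLH38 encodes a partner of FIT. OPT3 was called higher and BTS lower with ethylene in both lines, but the BTS calls were lost in DESeq2 and with library size alone. Capitals mark each G-box, CACGTG, which reads the same on both strands and is a site that many bHLH factors can bind. The G-box also matches CANNTG, the wider E-box. Sequences are from the TAIR10.1 RefSeq genome, 5′ to 3′ on the gene's strand, and the gene coordinates of all 31 loci there equal those of the count tables.
IRT1, plus strand, chr4:10707094-10707343: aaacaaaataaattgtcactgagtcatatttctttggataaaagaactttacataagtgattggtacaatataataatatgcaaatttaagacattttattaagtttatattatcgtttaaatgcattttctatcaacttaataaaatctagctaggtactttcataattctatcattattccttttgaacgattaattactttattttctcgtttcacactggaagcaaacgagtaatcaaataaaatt
FRO2, plus strand, chr1:208745-208994: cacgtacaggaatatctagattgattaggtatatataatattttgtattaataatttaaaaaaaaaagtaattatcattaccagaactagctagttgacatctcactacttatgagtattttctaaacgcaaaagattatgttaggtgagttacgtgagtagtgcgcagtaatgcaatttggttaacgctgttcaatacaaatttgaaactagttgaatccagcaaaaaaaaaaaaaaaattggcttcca
NAS2, minus strand, chr5:22712442-22712691: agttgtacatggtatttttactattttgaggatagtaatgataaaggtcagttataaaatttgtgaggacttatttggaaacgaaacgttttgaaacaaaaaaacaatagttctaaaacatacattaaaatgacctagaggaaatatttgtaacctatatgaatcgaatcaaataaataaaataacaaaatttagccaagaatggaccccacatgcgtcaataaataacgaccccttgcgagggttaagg
bHLH38, minus strand, chr3:21085246-21085495: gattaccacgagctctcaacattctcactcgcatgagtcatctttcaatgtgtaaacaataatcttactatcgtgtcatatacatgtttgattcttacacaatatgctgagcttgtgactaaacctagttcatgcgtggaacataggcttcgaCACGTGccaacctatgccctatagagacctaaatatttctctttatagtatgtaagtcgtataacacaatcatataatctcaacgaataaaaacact
OPT3, minus strand, chr4:9250344-9250593: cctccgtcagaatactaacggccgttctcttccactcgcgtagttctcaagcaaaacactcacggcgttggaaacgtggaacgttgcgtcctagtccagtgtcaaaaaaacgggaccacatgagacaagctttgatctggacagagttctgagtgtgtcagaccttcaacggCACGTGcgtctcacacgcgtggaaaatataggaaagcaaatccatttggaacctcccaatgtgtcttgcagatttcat
BTS, plus strand, chr3:6273716-6273965: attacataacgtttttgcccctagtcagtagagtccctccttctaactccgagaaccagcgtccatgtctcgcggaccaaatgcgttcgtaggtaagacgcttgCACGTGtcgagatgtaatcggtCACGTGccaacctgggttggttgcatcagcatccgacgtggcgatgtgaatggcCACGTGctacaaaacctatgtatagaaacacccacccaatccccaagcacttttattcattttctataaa
The window of BTS held 3 G-boxes, 146, 124 and 70 bases before the start, and those of bHLH38 and OPT3 held 1 each, at 97 and 78 bases. Over the whole list, 6 of 31 windows (19.35%) held a G-box, in bHLH38, bHLH100, BTS, OPT3, FER3 and FER4, against 6.49% of 27443 gene windows of the same length. The E-box was in 17 of 31 windows (54.84%) and in 55.31% of all. The windows of IRT1 and FRO2 held neither. A match is letters only, and nothing on binding was measured here.

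Of the 5 uptake genes, ethylene raised 3 and lowered 1 in each line, and 2, IRT1 and FRO2, were called lower in e2e3 than in e1e2 in air and in ethylene. Of all genes tested, 44% were called with ethylene in e2e3 and 39.2% in e1e2. Between the lines, 14.8% of all genes were called in air and 6.56% in ethylene. IRT1 (AT4G19690, chromosome 4, 10707344 to 10709015, the main ferrous iron importer of the root epidermis) had 28.5 and 28.0 CPM in e2e3 in ethylene, 11.7 and 11.1 CPM in e2e3 in air, 64.3 and 67.5 CPM in e1e2 in ethylene, and 41.6 and 39.2 CPM in e1e2 in air. No 2 groups overlapped: e1e2 in ethylene was highest, e2e3 in air lowest, and e2e3 in ethylene still lay under e1e2 in air. Ethylene raised IRT1 2.48-fold in e2e3 (log2 change 1.31 ± 0.10, SE, edgeR adjusted p = 5.11e-29) and 1.63-fold in e1e2 (0.71 ± 0.07, edgeR adjusted p = 1.77e-18). Relative to e1e2, IRT1 in e2e3 fell by 1.82 on the log2 scale in air (SE 0.09) and by 1.22 in ethylene (SE 0.07), both called.

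FRO2 (AT1G01580, chromosome 1, 208995 to 213082, the ferric chelate reductase that supplies IRT1) had 7.54 and 7.24 CPM in e2e3 in ethylene, 3.81 and 2.98 CPM in e2e3 in air, 19.9 and 19.5 CPM in e1e2 in ethylene, and 15.1 and 14.3 CPM in e1e2 in air. The 4 groups took the same order as for IRT1, again with no overlap. The rise with ethylene was 2.20-fold in e2e3 (log2 change 1.14 ± 0.18, edgeR adjusted p = 1.39e-08) and 1.34-fold in e1e2 (0.42 ± 0.12, edgeR adjusted p = 0.0023). DESeq2 did not call the rise in e1e2. FRO2 in e2e3 fell by 2.13 on the log2 scale relative to e1e2 in air (SE 0.16) and by 1.41 in ethylene (SE 0.13).

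IRT2 (AT4G19680, chromosome 4, 10703348 to 10704838, a relative of IRT1 in the same root cells) rose with ethylene and was not called between the lines. It had 16.6 and 16.4 CPM in e2e3 in ethylene, 6.90 and 8.61 CPM in e2e3 in air, 14.0 and 14.3 CPM in e1e2 in ethylene, and 5.92 and 5.75 CPM in e1e2 in air. Both ethylene groups lay above both air groups, and e2e3 lay somewhat above e1e2 in each treatment. The log2 change with ethylene was 1.07 ± 0.13 in e2e3 (edgeR adjusted p = 3.32e-13) and 1.28 ± 0.15 in e1e2 (edgeR adjusted p = 8.05e-14). Between the lines the log2 difference was 0.43 ± 0.17 in air (edgeR adjusted p = 0.0703, and 0.0439 without replicate 1 of e2e3 in air) and 0.22 ± 0.12 in ethylene (0.324). No window of 50 bases in the exons of IRT1 or IRT2 is repeated in the same orientation elsewhere in the nuclear chromosomes. Inverted copies and organelle genomes were not covered by that search.

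AHA2, a plasma membrane proton pump that acidifies the root surface and energises transport generally, fell with ethylene. It averaged 1836 ± 48.4 CPM in ethylene and 2333 ± 70.8 CPM in air in e2e3, and 1808 ± 5.39 CPM in ethylene and 2199 ± 133 CPM in air in e1e2 (SD, n = 2 each). The log2 changes were −0.35 ± 0.03 in e2e3 and −0.28 ± 0.03 in e1e2, both called. Between the lines AHA2 differed by 0.09 ± 0.03 in air, called only without replicate 1 of e1e2 in air (0.13), and by 0.02 ± 0.03 in ethylene. FRO3, a mitochondrial reductase gene that responds to iron shortage, was not called in any of the 5 comparisons and lay between 80.6 and 94.2 CPM in the 8 libraries.

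**Figure D2:**
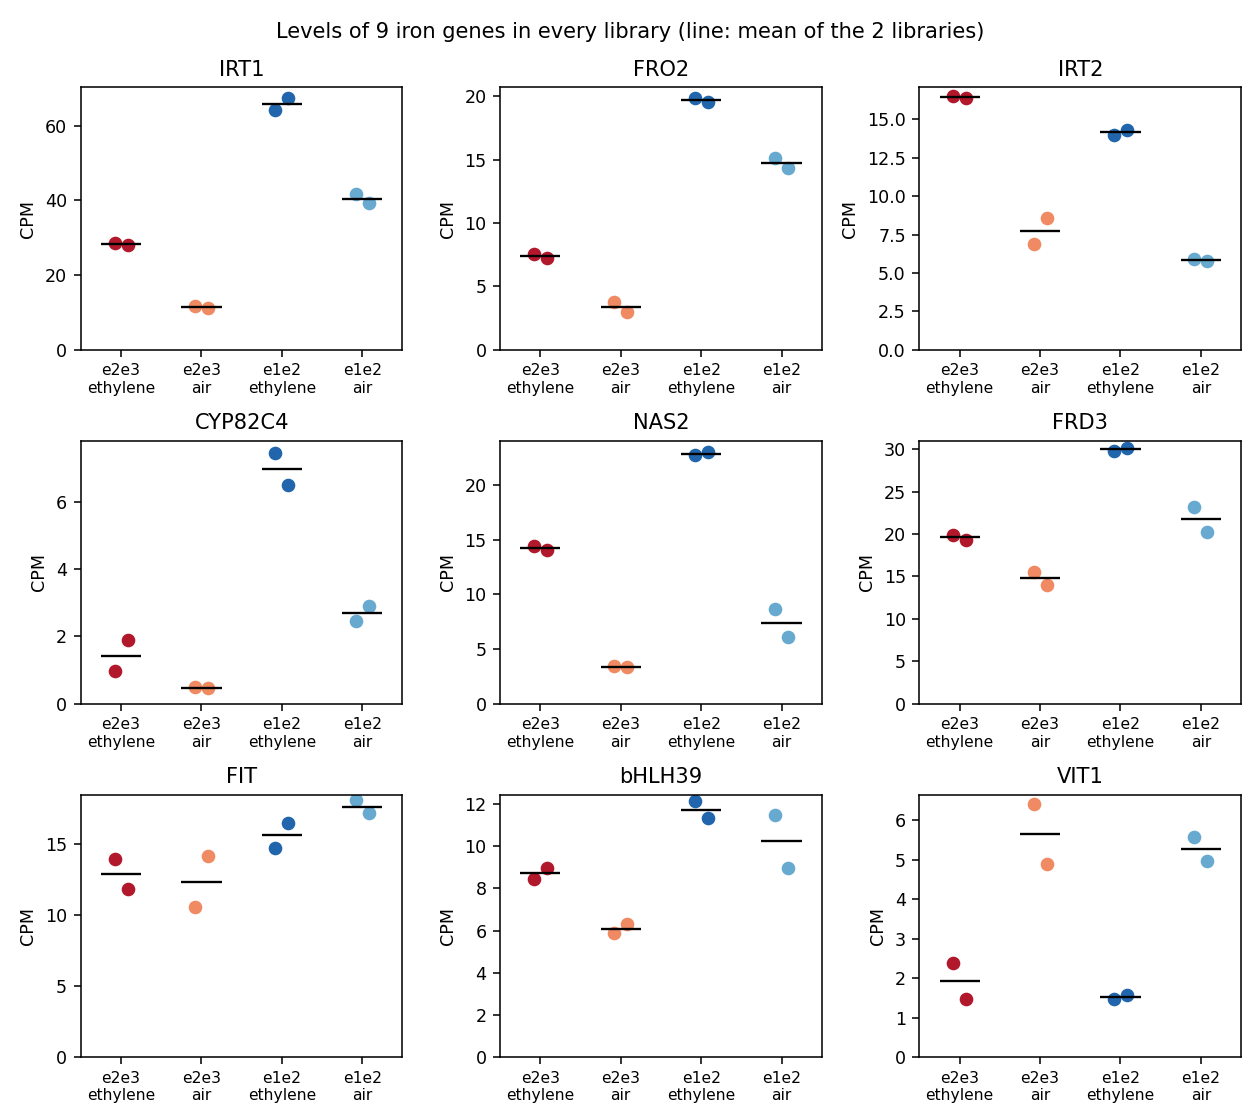
Level in CPM of 9 iron genes in each of the 8 libraries (points) with the mean of the 2 libraries of a group (line). From left to right stand e2e3 in ethylene, e2e3 in air, e1e2 in ethylene and e1e2 in air. IRT1 and FRO2 are lower in e2e3 than in e1e2 in both treatments, IRT2 and NAS2 are higher in ethylene than in air in both lines, VIT1 is lower in ethylene, and FIT shows no gap between ethylene and air in e2e3.

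On the log2 scale, ethylene changed IRT1 by more in e2e3 than in e1e2. The difference of the responses, e2e3 minus e1e2, was tested as an interaction, and 2 of 28 iron genes were called higher and 0 lower, where 2.8% of all genes were called (1.54% higher and 1.27% lower). IRT1 gave a log2 difference of 0.60 ± 0.12 (edgeR adjusted p = 0.000377), and FRO2 one of 0.72 ± 0.22 (edgeR adjusted p = 0.0466). For IRT1 the call held in all 8 fits with a library left out (adjusted p up to 0.0104). DESeq2 called 0 iron genes and gave an adjusted p to only 8 of the iron genes, and to neither of these. Without independent filtering, a setting added after seeing the data, it called IRT1 (0.0422) and not FRO2. For FRO2 the edgeR call held in 1 of the 8 leave-one-out fits, that without replicate 1 of e2e3 in air, with an adjusted p of 0.0597 to 0.349 in the others and a value of 0.56 without replicate 2 of e2e3 in air. In CPM, IRT1 stood at 28.2 in ethylene against 11.4 in air in e2e3, and at 65.9 against 40.4 in e1e2. The larger ratio in e2e3 thus stood beside lower levels and a smaller step in CPM. Of the 4 shoot markers, 3 were also called higher and 0 lower in the difference of the responses. Of 7 epidermis markers 0 were higher and 0 lower, and of 9 inner root markers 0 were higher and 1 lower. The part of these markers in the result was not tested. This difference uses the same libraries as the line comparisons, and the results are not independent of each other.

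FIT (AT2G28160, chromosome 2, 12004658 to 12006276), the central bHLH factor of iron uptake, had 14.0 and 11.8 CPM in e2e3 in ethylene, 10.6 and 14.2 CPM in e2e3 in air, 14.7 and 16.5 CPM in e1e2 in ethylene, and 18.1 and 17.2 CPM in e1e2 in air. Ethylene and air overlapped in e2e3, and every e2e3 library lay below every e1e2 library. The log2 change with ethylene was 0.04 ± 0.12 in e2e3 and −0.17 ± 0.12 in e1e2, neither called. FIT was lower in e2e3 than in e1e2 in air (−0.49 ± 0.12, edgeR adjusted p = 0.0011, but 0.126 at −0.33 without replicate 1 of e2e3 in air, −0.75 without replicate 2 of e2e3 in air, and not called by DESeq2), and not called in ethylene (−0.28 ± 0.12, edgeR adjusted p = 0.178).

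bHLH39 (AT3G56980, chromosome 3, 21086390 to 21087710), a partner of FIT, had 8.45 and 8.98 CPM in e2e3 in ethylene, 5.89 and 6.30 CPM in e2e3 in air, 12.1 and 11.3 CPM in e1e2 in ethylene, and 11.5 and 8.98 CPM in e1e2 in air. The e2e3 air libraries were lowest, and the e1e2 groups overlapped each other. Ethylene raised it in e2e3 (log2 change 0.51 ± 0.16, edgeR adjusted p = 0.00483, and 0.0505 without replicate 2 of e2e3 in ethylene) and gave 0.20 ± 0.14 in e1e2, not called. Relative to e1e2 it was lower in e2e3 in air (−0.73 ± 0.16, edgeR adjusted p = 0.000152). In ethylene the difference of −0.43 ± 0.14 was called at an edgeR adjusted p of 0.0481 and kept that call in only 2 of the 8 leave-one-out fits, those without either replicate of e1e2 in air (0.056 to 0.291 in the others). That call was also lost with RLE size factors (0.0531), with no expression filter (0.0519) and in DESeq2 without independent filtering.

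bHLH38 (AT3G56970, chromosome 3, 21084035 to 21085245), another partner of FIT, had 2.17 and 2.23 CPM in e2e3 in ethylene, 1.08 and 1.41 CPM in e2e3 in air, 2.69 and 2.54 CPM in e1e2 in ethylene, and 2.39 and 1.81 CPM in e1e2 in air. The e2e3 air libraries were again lowest, on 15 and 25 counts. The rise with ethylene was called in e2e3 (log2 change 0.80 ± 0.33, edgeR adjusted p = 0.0401), but not without any one of the 4 e2e3 libraries (0.0524 to 0.177) and not by DESeq2. Of the exonic bases of bHLH38, 35.67% lie under the gene AT3G56960, where the authors' counting left reads out. bHLH101 was not called in any comparison at 1.65 to 3.23 CPM. bHLH100, too low to test, had 5 and 5 counts in e2e3 in ethylene, 2 and 2 in e2e3 in air, 9 and 16 in e1e2 in ethylene, and 6 and 8 in e1e2 in air, lowest in e2e3 in air as well.

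Of the exonic bases of MYB10, 26.03% lie under the gene AT3G12810. MYB10, a factor that helps plants to grow on little available iron, rose with ethylene. It averaged 32.8 ± 0.508 CPM in ethylene and 23.1 ± 2.16 CPM in air in e2e3 (log2 change 0.50 ± 0.09, edgeR adjusted p = 1.32e-07), and 30.2 ± 2.45 CPM in ethylene and 25.3 ± 0.136 CPM in air in e1e2 (0.26 ± 0.09, edgeR adjusted p = 0.0143). The call in e1e2 was lost in DESeq2 and in the fits without replicate 1 of e1e2 in air (0.066), replicate 2 of e1e2 in air (0.0596) or replicate 2 of e1e2 in ethylene (0.233). BTS, an E3 ligase that restrains the iron response, fell with ethylene by 0.15 on the log2 scale in e2e3 (SE 0.05) and by 0.19 in e1e2 (SE 0.06). Neither fall was called by DESeq2 or with library size alone. The fall in e2e3 was lost without any one of the 4 e2e3 libraries (adjusted p 0.0568 to 0.158), and that in e1e2 without replicate 1 of e1e2 in air (0.206 at −0.11) or replicate 2 of e1e2 in ethylene (0.125). PYE, a bHLH repressor of iron transport genes, was not called in any comparison and lay between 7.40 and 9.83 CPM.

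**Figure D3:**
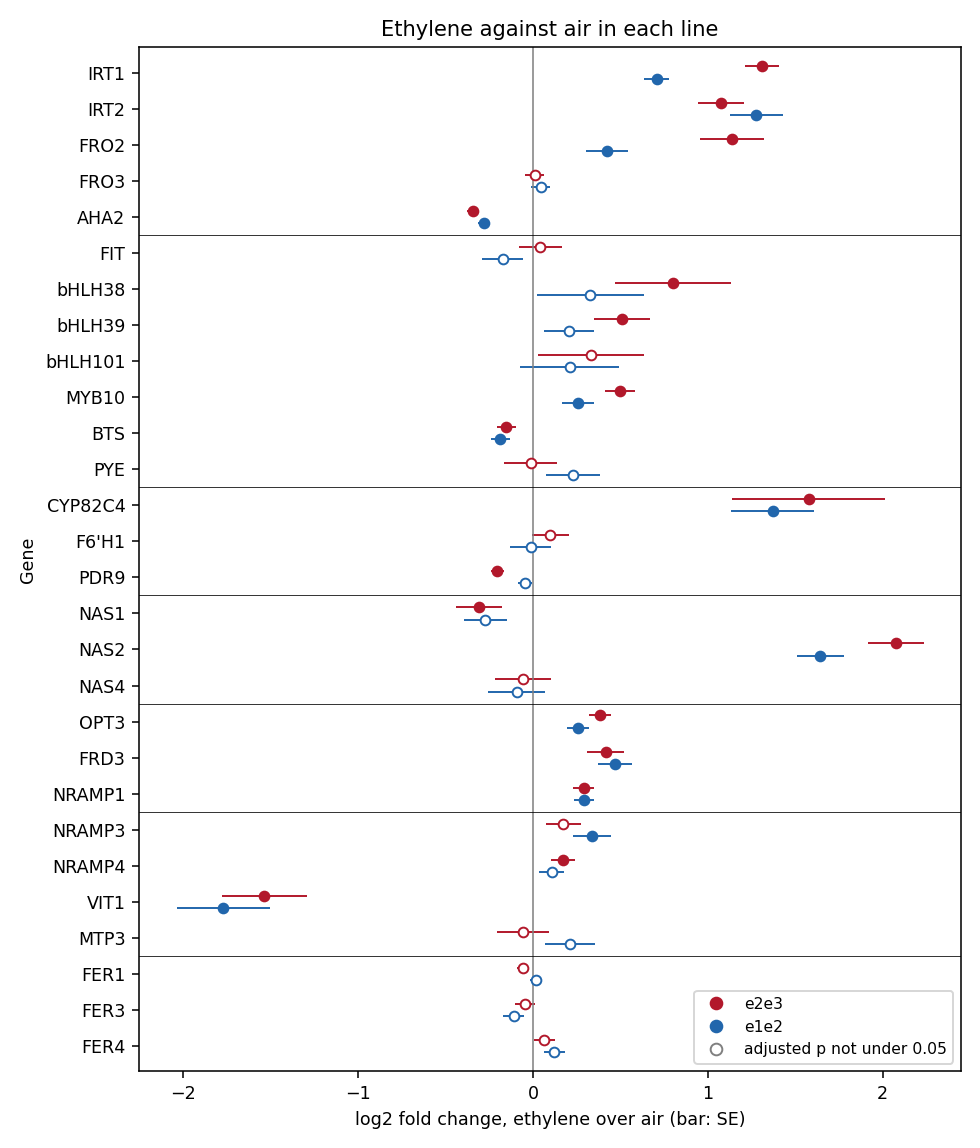
Log2 fold change, ethylene over air, of the 28 tested iron genes, with e2e3 above e1e2 for each gene. Points are edgeR estimates, bars are 1 SE, and open points did not pass an adjusted p of 0.05. NAS2, CYP82C4, IRT1, IRT2 and FRO2 lie right of 0 in both lines, VIT1 lies left of 0 in both, and the FIT and ferritin points are open.

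CYP82C4 (AT4G31940, chromosome 4, 15451988 to 15454224), which hydroxylates the coumarin fraxetin to sideretin, had 0.978 and 1.88 CPM in e2e3 in ethylene, 0.503 and 0.450 CPM in e2e3 in air, 7.48 and 6.53 CPM in e1e2 in ethylene, and 2.47 and 2.92 CPM in e1e2 in air. Every e2e3 library lay below every e1e2 library, and ethylene lay above air in each line. In e2e3 these levels rest on 14 and 27 counts in ethylene and on 7 and 8 in air. The log2 change with ethylene was 1.58 ± 0.44 in e2e3 (edgeR adjusted p = 0.00143, but 0.154 at 1.03 without replicate 2 of e2e3 in ethylene) and 1.37 ± 0.24 in e1e2 (edgeR adjusted p = 1.97e-07).

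By point estimate, the gap between the lines was wider for CYP82C4 than for any other iron gene tested. In air its SE does not set it apart from FRO2. Relative to e1e2, CYP82C4 fell in e2e3 by 2.49 on the log2 scale in air (SE 0.39, edgeR adjusted p = 6.38e-08) and by 2.29 in ethylene (SE 0.26, edgeR adjusted p = 8.92e-14). F6'H1, which makes the scopoletin precursor at the entry to this pathway, was not called in any comparison and lay between 14.7 and 18.4 CPM. PDR9, an ABC transporter that exports coumarins, fell with ethylene in e2e3 (log2 change −0.20 ± 0.04) and not in e1e2 (−0.05 ± 0.04, not called), and was higher in e2e3 than in e1e2 in air (0.22 ± 0.04). The difference of its responses was not called (−0.16 ± 0.06, edgeR adjusted p = 0.106).

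Of the nicotianamine synthase genes, which make the main iron chelator of the phloem and cells, NAS2 gave the strongest rise with ethylene among the iron genes in both lines. NAS2 (AT5G56080, chromosome 5, 22711141 to 22712441) had 14.5 and 14.1 CPM in e2e3 in ethylene, 3.45 and 3.32 CPM in e2e3 in air, 22.8 and 23.1 CPM in e1e2 in ethylene, and 8.66 and 6.15 CPM in e1e2 in air. No 2 groups overlapped, and both ethylene groups lay above both air groups. The rise was 4.21-fold in e2e3 (log2 change 2.07 ± 0.16, edgeR adjusted p = 1.14e-27) and 3.12-fold in e1e2 (1.64 ± 0.13, edgeR adjusted p = 3.23e-25). Relative to e1e2, NAS2 in e2e3 fell by 1.12 on the log2 scale in air (SE 0.19) and by 0.68 in ethylene (SE 0.11), both called.

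NAS1 went another way than NAS2 with ethylene, and the same way between the lines. It averaged 9.94 ± 0.615 CPM in e2e3 in ethylene, 12.3 ± 0.615 CPM in e2e3 in air, 13.8 ± 1.58 CPM in e1e2 in ethylene and 16.7 ± 1.36 CPM in e1e2 in air. The log2 change with ethylene was −0.31 ± 0.13 in e2e3 (edgeR adjusted p = 0.0438) and −0.27 ± 0.12 in e1e2 (edgeR adjusted p = 0.0642). The call in e2e3 held in 3 of the 8 leave-one-out fits, those without replicate 2 of e1e2 in air or either replicate of e1e2 in ethylene. The adjusted p of the 5 others was 0.0554 to 0.282, and the call was also lost in DESeq2, with library size alone and under either other filter on low counts. The change in e1e2 was called without replicate 1 of e1e2 in air (0.0468) or replicate 1 of e1e2 in ethylene (0.0359). Relative to e1e2 NAS1 was lower in e2e3 in air (−0.44 ± 0.12) and in ethylene (−0.48 ± 0.13). The call in air was lost without replicate 2 of e1e2 in air (0.147) or replicate 1 of e2e3 in air (0.0535). That in ethylene was lost without replicate 1 of e2e3 in ethylene (0.133) or replicate 1 of e1e2 in ethylene (0.274), and DESeq2 without independent filtering called neither. NAS4 was not called in any comparison, at 6.85 to 8.67 CPM.

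FRD3, OPT3 and NRAMP1 move iron or its chelators across membranes, and each was called higher with ethylene in both lines. FRD3 (AT3G08040, chromosome 3, 2566196 to 2569700, which loads citrate into the xylem) had 19.8 and 19.3 CPM in e2e3 in ethylene, 15.5 and 14.0 CPM in e2e3 in air, 29.8 and 30.2 CPM in e1e2 in ethylene, and 23.2 and 20.2 CPM in e1e2 in air. Ethylene lay above air in each line, and every e2e3 library lay below every e1e2 library. The log2 change with ethylene was 0.41 ± 0.10 in e2e3 (edgeR adjusted p = 0.000403) and 0.47 ± 0.10 in e1e2 (edgeR adjusted p = 1.07e-05). Relative to e1e2, FRD3 in e2e3 was lower by −0.56 ± 0.11 on the log2 scale in air and −0.61 ± 0.09 in ethylene, both called.

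OPT3, which loads iron into the phloem, averaged 60.4 ± 2.41 CPM in ethylene and 46.3 ± 0.671 CPM in air in e2e3, and 67.3 ± 2.99 CPM in ethylene and 56.5 ± 4.21 CPM in air in e1e2. Its log2 change with ethylene was 0.38 ± 0.06 in e2e3 and 0.26 ± 0.06 in e1e2 (edgeR adjusted p = 0.000354, and 0.0604 without replicate 2 of e1e2 in air). It was lower in e2e3 in air (−0.28 ± 0.07, called) and at −0.16 ± 0.06 in ethylene, not called. NRAMP1, a plasma membrane transporter of manganese and iron, rose by 0.29 ± 0.06 on the log2 scale with ethylene in both lines. Its log2 difference between e2e3 and e1e2 was −0.17 ± 0.06 in air and again in ethylene. These calls (edgeR adjusted p = 0.0465 and 0.0461) were lost in DESeq2. In air the call of NRAMP1 was also lost in the fit of the 2 groups alone (0.0511) and without replicate 1 of e2e3 in air, replicate 1 of e1e2 in air or either replicate of e1e2 in ethylene (adjusted p 0.0607 to 0.413). In ethylene it was lost with RLE size factors, under either other filter on low counts (0.0519 to 0.0612 over these 3), and without replicate 1 of e2e3 in ethylene, either replicate of e2e3 in air or either replicate of e1e2 in ethylene (0.0582 to 0.499).

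**Figure D4:**
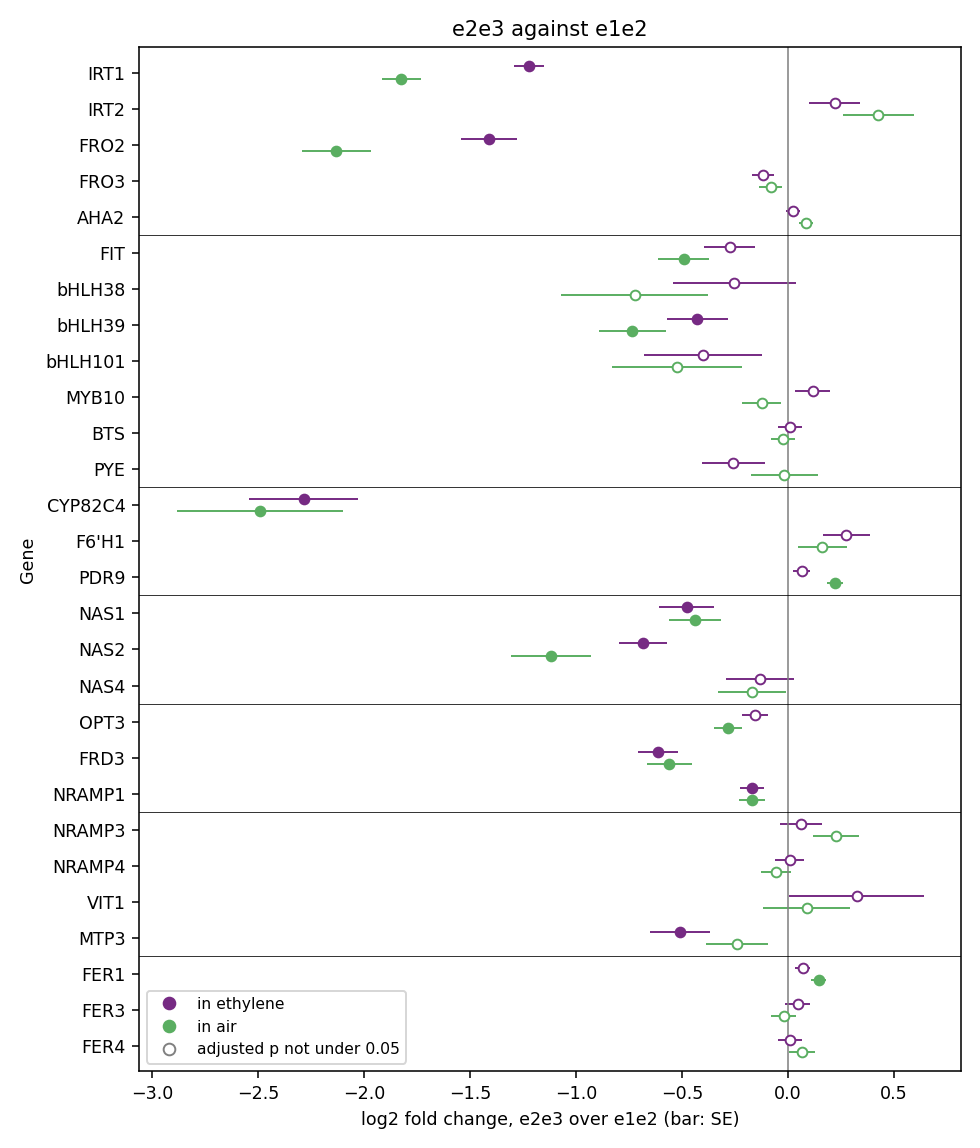
Log2 fold change, e2e3 over e1e2, of the 28 tested iron genes, with the comparison in ethylene above that in air for each gene. Points are edgeR estimates, bars are 1 SE, and open points did not pass an adjusted p of 0.05. CYP82C4, FRO2 and IRT1 lie furthest left in both treatments, and no filled point in ethylene lies right of 0.

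Genes of the vacuolar membrane split. VIT1 (AT2G01770, chromosome 2, 334663 to 336462, which moves iron into the vacuole and places it in the seed) had 2.37 and 1.46 CPM in e2e3 in ethylene, 6.39 and 4.90 CPM in e2e3 in air, 1.48 and 1.58 CPM in e1e2 in ethylene, and 5.57 and 4.96 CPM in e1e2 in air. Both ethylene groups lay below both air groups, and the lines overlapped in each treatment. It fell with ethylene by 1.54 on the log2 scale in e2e3 (SE 0.24, edgeR adjusted p = 9.35e-09) and by 1.77 in e1e2 (SE 0.27, edgeR adjusted p = 2.14e-09). Of its exonic bases, 10.86% lie under the gene AT2G01760.

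NRAMP3 and NRAMP4, which release iron from the vacuole, were each called higher with ethylene in 1 line. The log2 change of NRAMP3 with ethylene was 0.17 ± 0.10 in e2e3, not called, and 0.34 ± 0.11 in e1e2 (edgeR adjusted p = 0.00747, and 0.131 without replicate 2 of e1e2 in air). That of NRAMP4 was 0.17 ± 0.07 in e2e3 (edgeR adjusted p = 0.0328, 0.0776 to 0.133 without replicate 1 of e2e3 in air or either replicate of e2e3 in ethylene) and 0.11 ± 0.07 in e1e2, called only without replicate 2 of e1e2 in ethylene (0.22, 0.0363). DESeq2 called neither. MTP3 (AT3G58810, chromosome 3, 21749966 to 21752141), a vacuolar zinc importer that is induced when iron is short, had 8.45 and 8.35 CPM in e2e3 in ethylene, 8.55 and 8.89 CPM in e2e3 in air, 12.3 and 11.7 CPM in e1e2 in ethylene, and 10.7 and 10.0 CPM in e1e2 in air. All e2e3 libraries lay below all e1e2 libraries. The difference was called in ethylene (log2 difference −0.51 ± 0.14, edgeR adjusted p = 0.00984) but not in air (−0.24 ± 0.15), and the call of MTP3 was lost without any one of the 4 ethylene libraries (adjusted p 0.0512 to 0.123).

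The ferritin genes differed little between groups. FER1 (AT5G01600, chromosome 5, 227953 to 230051) had 499.8 and 511 CPM in e2e3 in ethylene, 516 and 535 CPM in e2e3 in air, 479.7 and 483 CPM in e1e2 in ethylene, and 487 and 464 CPM in e1e2 in air. The e2e3 libraries lay above the e1e2 libraries by a small step. In e2e3 ethylene lay just below air, and in e1e2 the 2 treatments overlapped. The log2 difference between e2e3 and e1e2 was 0.14 ± 0.04 in air (edgeR adjusted p = 0.000972, and 0.135 at 0.10 without replicate 2 of e2e3 in air) and 0.07 ± 0.04 in ethylene, not called. Its log2 change with ethylene was −0.06 ± 0.03 in e2e3 and 0.02 ± 0.04 in e1e2.

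FER3 (AT3G56090, chromosome 3, 20813904 to 20816035) had 67.3 and 70.2 CPM in e2e3 in ethylene, 70.1 and 71.7 CPM in e2e3 in air, 69.8 and 63.3 CPM in e1e2 in ethylene, and 75.9 and 68.2 CPM in e1e2 in air. FER4 (AT2G40300, chromosome 2, 16831109 to 16833294) had 69.2 and 69.9 CPM in e2e3 in ethylene, 64.6 and 68.2 CPM in e2e3 in air, 66.2 and 72.0 CPM in e1e2 in ethylene, and 63.6 and 63.5 CPM in e1e2 in air. For FER3 ethylene and air overlapped in both lines, and for FER4 ethylene lay above air in both lines by a small step. Neither gene was called in any of the 5 comparisons. With library size alone as the scaling, FER4 was called higher in ethylene in both lines and FER1 in e1e2, and without replicate 2 of e1e2 in air FER3 was called lower in ethylene in e1e2 (−0.19).

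**Figure D5:**
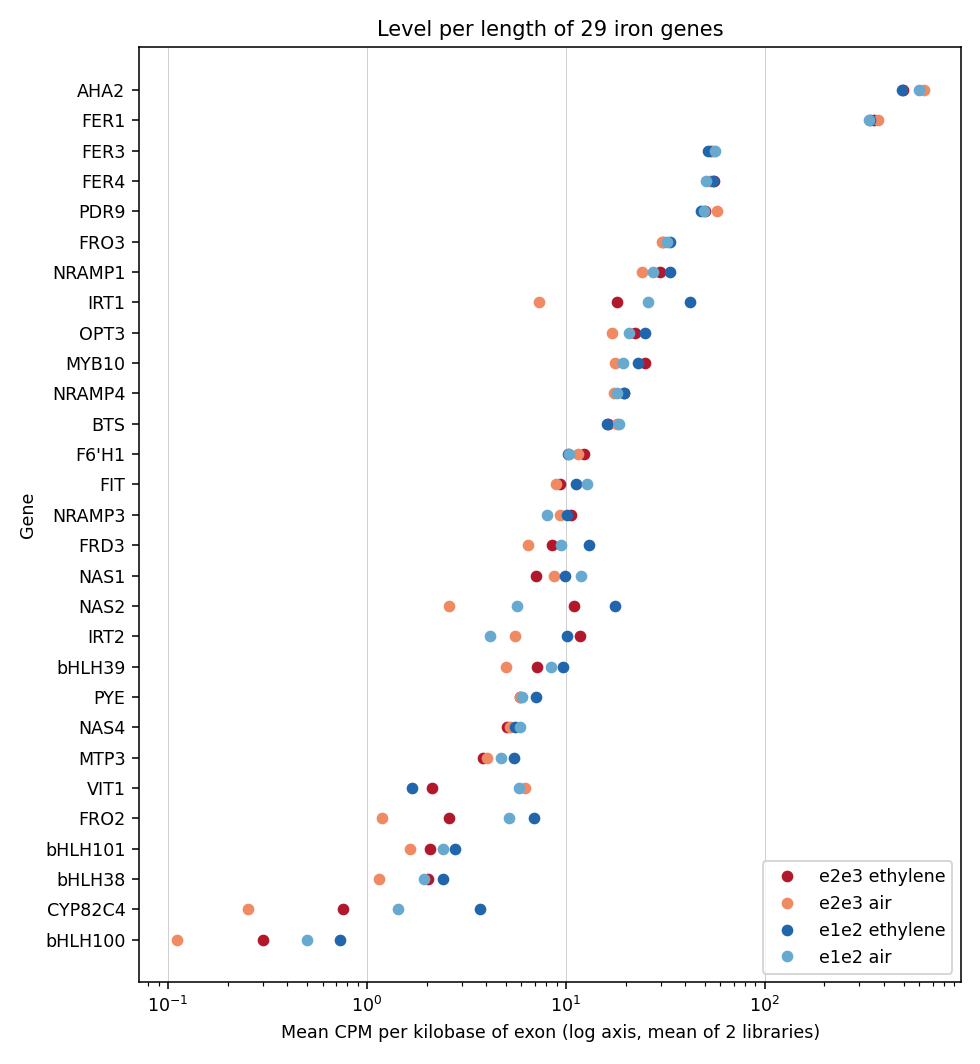
Mean CPM per kilobase of exon of the 29 iron genes with at least 10 counts (log axis), 1 point per group. AHA2 and FER1 stand at the top at 553 and 349.7 CPM per kilobase over the 8 libraries, bHLH100 at the bottom, and the points of CYP82C4, NAS2, bHLH100, FRO2 and IRT1 lie furthest apart.

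Per length, the iron genes spanned a wide range. AHA2 stood at 553 CPM per kilobase of exon over the 8 libraries and FER1 at 349.7, ahead of FER3 at 54.5 and FER4 at 53.6. IRT1 stood at 23.3, FIT at 10.6, FRO2 at 3.96, CYP82C4 at 1.54 and bHLH100 at 0.413 CPM per kilobase. In e1e2 in ethylene, IRT1 reached 42.1 CPM per kilobase, and in e2e3 in air 7.31, under the level of FIT there (8.97). In whole seedlings these levels average over root and shoot.

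The calls can be set beside those of the authors' deposited tables of DESeq2 results for ethylene in each line. In the authors' deposited table for e2e3, 7 of the iron genes were higher and 3 lower at an adjusted p under 0.05, and in that for e1e2, 6 were higher and 2 lower. The share of all genes called in those deposited results was not counted here, so these counts are a description. IRT1, IRT2, NAS2 and NRAMP1 were higher, and AHA2 and VIT1 lower, in the authors' deposited tables for both lines. FRO2, MYB10 and OPT3 were higher and PDR9 lower only in the one for e2e3, and CYP82C4 and FRD3 were higher only in the one for e1e2, which does not test a difference between lines. The authors' deposited list of 1242 genes changed by ethylene in wild type, out of 36799 in the count tables, holds 2 of the 31 iron genes, NAS1 and VIT1. In the authors' deposited list the log2 change of NAS1 is −0.30 in e2e3, −0.27 in e1e2 and −2.26 in wild type. That of VIT1 in the authors' deposited list is −1.55 in e2e3, −1.78 in e1e2 and −2.42 in wild type. IRT1, FRO2 and NAS2 are not in that list, whose smallest wild-type change is 1.00 on the log2 scale, and their wild-type values were not analysed here. Such a floor on the wild-type change alone favours larger values in wild type than in the lines. A difference between wild type and the lines was not tested.

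A further 40 genes of iron handling, picked by function, were read as a companion list, and 36 were tested. Ethylene raised 5 and lowered 9 of them in e2e3, and raised 6 and lowered 10 in e1e2 (9 in all without replicate 2 of e1e2 in ethylene). These shares are near those of all genes tested, 44% in e2e3 and 39.2% in e1e2. The median log2 change was 0.01 in e2e3 and −0.01 in e1e2. bHLH20, which with bHLH18, bHLH19 and bHLH25 promotes the breakdown of FIT, fell by 1.32 on the log2 scale in e2e3 (SE 0.06), with a log2 change of −1.197 in e1e2 (SE 0.07). It averaged 33.0 ± 1.10 CPM in ethylene and 82.6 ± 3.10 CPM in air in e2e3, and 31.04 ± 1.34 CPM in ethylene and 71.2 ± 0.869 CPM in air in e1e2. bHLH18 fell too, at levels under 2 CPM, by 1.93 in e1e2 (SE 0.51), while its fall by 1.11 in e2e3 (SE 0.47) was called in 1 of the 8 leave-one-out fits, that without replicate 1 of e2e3 in ethylene, and was lost in DESeq2, with library size alone and with no expression filter. YSL2, a transporter of metal chelates with nicotianamine, fell by 1.03 in e2e3 (SE 0.09) and 0.74 in e1e2 (SE 0.10). FER2, the seed ferritin, fell by 0.67 in e2e3 (SE 0.14) and 0.45 in e1e2 (SE 0.15, but −0.15 with adjusted p 0.617 without replicate 2 of e1e2 in air, and −0.40 with 0.0877 without replicate 2 of e1e2 in ethylene).

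Between the lines, 4 of these 36 were higher and 5 lower in e2e3 than in e1e2 in air, and 1 higher and 3 lower in ethylene, where 14.8% and 6.56% of all genes were called. In air the count of 9 was 4 without replicate 1 of e2e3 in air, 4 without replicate 2 of e2e3 in air and 5 without replicate 1 of e1e2 in air. VTL5, a vacuolar iron transporter-like gene, averaged 4.99 ± 0.234 CPM in e2e3 in ethylene, 4.94 ± 0.581 CPM in e2e3 in air, 15.1 ± 1.42 CPM in e1e2 in ethylene and 15.4 ± 1.11 CPM in e1e2 in air. It was lower in e2e3 than in e1e2 by −1.63 ± 0.15 on the log2 scale in air and −1.59 ± 0.15 in ethylene, and ethylene left it uncalled in both lines. bHLH25 was lower in e2e3 by −1.04 ± 0.19 in air, and FRO5, a reductase that serves copper uptake, by −0.83 ± 0.18 in ethylene. VTL1, a relative of VTL5, was lower by −1.19 ± 0.25 in ethylene, and not called without replicate 1 of e1e2 in ethylene (−0.90, adjusted p 0.0893). For the difference of the responses, edgeR called 0 of the 36, with 3 at an unadjusted p under 0.05, and DESeq2 also called 0.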

How the data were processed

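Gene expression was measured in 8 RNA-seq libraries, 2 in each of 4 groups of line and treatment. The authors deposited raw counts per gene, made with featureCounts 2.0.1 on paired reads without strand, per the file headers, and without counting reads over several genes or places. The counts of e1e2 and of e2e3 came in separate count tables. Line and table therefore coincide and cannot be told apart in the comparisons between the lines. TAIR10, STAR, Trim Galore, FastQC and DESeq2 are named in the submitters' processing notes. The authors' deposited DESeq2 tables give log2 fold changes and p-values, and settings of that run are not given here. Members of the 31-gene list, the companion list of 40, the root and shoot markers and the zinc and copper list were chosen with earlier results of these data known.

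Counts were fitted with edgeR 4.0.16 in R 4.3.3 (TMM scaling, default expression filter by group, robust quasi-likelihood fit of 4 group means, 4 residual degrees of freedom), leaving 20193 genes. Spread is shared between genes (median prior degrees of freedom 218, common biological coefficient of variation 2.75%), so p-values rest mostly on spread shared by genes. The fit was tested on simulated counts with known changes. Adjustment was by Benjamini-Hochberg, over all genes, and a gene was called under 0.05. Log2 changes come with SE, levels as CPM with SD. Values in every library are given for members called with an absolute log2 change of at least 0.5, and for FIT, IRT1, FRO2 and the ferritins, and the others by mean or range. Of the companion list, genes among the 6 largest called changes per comparison are named. Alternatives were RLE factors, library size alone, DESeq2 1.42.0, 2 other filters, a replicate block, fits of only the groups compared, and leaving out each library. DESeq2 without independent filtering was added after seeing the data.

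Library totals ran from 11522823 to 18601837 counts, and the 2 replicates of every group differed beyond counting noise (chi-square per gene 1.42 to 1.97). Upstream windows and motifs were read from the TAIR10.1 RefSeq genome, in which 36449 of the 36799 loci have the coordinates of the count tables.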

Additional observations from a re-analysis of the deposited data

Results flagged for a closer look

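The ethylene responses of 2 iron uptake genes differed between the lines by the test of the difference itself, the quasi-likelihood test of edgeR, adjusted by Benjamini-Hochberg over all genes. For IRT1 the log2 difference, e2e3 minus e1e2, was 0.60 ± 0.12 (SE, adjusted p = 0.000377), with a higher level in ethylene in both lines. For FRO2 it was 0.72 ± 0.22 (adjusted p = 0.0466), with the same direction in both lines, and 7 of the 8 leave-one-out fits did not keep that call. DESeq2 called 0 iron genes for this difference and gave neither gene an adjusted p, and without independent filtering, added after seeing the data, it called IRT1 (0.0422) and not FRO2. IRT1 stood at 28.2 CPM in ethylene and 11.4 CPM in air in e2e3, and at 65.9 CPM in ethylene and 40.4 CPM in air in e1e2.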

How the results depend on the processing

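No call of a single gene changed direction past the threshold under any alternative run. The split of all genes into higher and lower did turn with library size alone, for ethylene in each line and between the lines in each treatment. Counts of iron genes called under the other scalings, filters and fits of only 2 groups stayed within 1.5 times the reported ones. DESeq2 called 1 iron gene between the lines in ethylene and 0 for the difference of responses, where it gave an adjusted p to 11 and 8 of them and found 9 and 3 at an unadjusted p under 0.05. Without independent filtering it called 5 and 1. Over all genes DESeq2 called 5137 for ethylene in e1e2, 1409 between the lines in air, 574 between them in ethylene and 225 for the difference of responses. Without independent filtering it called 4904 for ethylene in e1e2 and 5659 in e2e3, 1243 and 491 between the lines in air and in ethylene, and 107 for the difference. Same-numbered libraries did not deviate together over all genes tested (correlations −0.0299 to 0.000911 over 6 pairs of groups). These values cannot exclude a pairing by number that touches only some genes. The replicate block called 1 iron gene for the difference of responses, IRT1, with FRO2 at 0.0607. The block also ended the calls of NAS1 for ethylene in e2e3 (0.0504), of bHLH39 between the lines in ethylene (0.0627) and of NRAMP1 between the lines in air (0.0541) and in ethylene (0.0634), and changed no other iron call. Leaving out 1 library at a time gave 11 to 17 iron genes for ethylene in e2e3, 11 to 14 in e1e2, 10 to 12 between the lines in air, 5 to 9 in ethylene and 1 to 2 for the difference. Over all genes these ranges were 7291 to 9141, 6327 to 7879, 1952 to 2936, 638 to 1586 and 240 to 545. A lone library is assumed to vary like the other groups. Low counts limit CYP82C4 (7 to 27 counts in e2e3 libraries), bHLH38 and bHLH100, and 2 libraries a group limit every comparison.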

Other observations

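A list of 22 zinc and copper genes was drawn up after the iron values had been seen, and 20 were tested, so its counts are a description only. Ethylene raised 5 and lowered 5 of them in e2e3 and raised 3 and lowered 5 in e1e2. Those 10 in e2e3 were 6 without replicate 1 and 5 without replicate 2 of e2e3 in ethylene, the 8 in e1e2 were 4 without replicate 1 of e1e2 in ethylene, and DESeq2 called 4 and 5. These shares are near the 44% and 39.2% of all genes called. Between the lines, 6 were higher and 1 lower in e2e3 than in e1e2 in air, and 5 higher and 0 lower in ethylene, where 14.8% and 6.56% of all genes were called and the iron list had 10 and 9 lower. At an unadjusted p under 0.05 edgeR gave 5 higher and 1 lower in ethylene, and DESeq2 without independent filtering called 3 higher and 0 lower. COPT1, a copper importer of the plasma membrane, averaged 40.8 ± 0.894 CPM in ethylene and 59.9 ± 0.743 CPM in air in e2e3, and 31.7 ± 0.659 CPM in ethylene and 49.8 ± 1.57 CPM in air in e1e2 (SD, n = 2 each). It was higher in e2e3 than in e1e2 by 0.27 ± 0.07 on the log2 scale in air, with an adjusted p of 0.0503 without replicate 1 of e1e2 in air, and by 0.37 ± 0.07 in ethylene. ZIP2, a zinc and manganese transporter of the root, was higher in e2e3 by 0.41 ± 0.06 in air and 0.38 ± 0.06 in ethylene, at 65.0 ± 3.52 CPM in e2e3 and 50.0 ± 0.370 CPM in e1e2 in ethylene. The combined count of 7 in air was 4 without replicate 2 of e2e3 in air or replicate 1 of e1e2 in air, and the 5 in ethylene was 3 without replicate 1 of e2e3 in ethylene or replicate 2 of e1e2 in ethylene.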
